A study of Homo sapiens with 16 samples.

Results

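The genes described here belong to families of transcription factors, most of which bind DNA directly. They were chosen by symbol alone, as the genes with an Ago2 peak whose names begin with the root of the HOX, SOX, FOX, KLF, SP, sine oculis (SIX4 and related genes), TEAD, GATA, TFAP, NFI, ZEB, MEF2, NR (nuclear receptor), ETS, ETV or ID family. The choice gave 31 genes of 2213 (1.40%), with 86 peaks of 4718 (1.82%). The values come from 293S cells, an established line of human embryonic kidney origin, given 1 µM hippuristanol for 30 min or left untreated. Hippuristanol inhibits eIF4A, the helicase that opens the 5′ end of an mRNA for translation. Ago2, the Argonaute protein that carries microRNAs to their targets, was crosslinked to RNA and precipitated (CLIP). The labels give 2 replicates per treatment for each of 3 antibodies, which makes 6 CLIP libraries with hippuristanol and 6 without. The sample titles do not say whether a replicate is a separate culture. The 4 matched RNA-seq libraries were not analysed here.

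Each peak has 2 values in the authors' table, with none per library. The log average is the level of Ago2 signal over both treatments, and the log ratio is hippuristanol over untreated, so a positive log ratio means more signal with hippuristanol. How the values were normalized, and to which base the logarithm was taken, is not stated in the sources used here. Both values are therefore in the authors' log units, and differences are not turned into folds. Each value stands without a replicate, since values per library were not analysed here, and the differences below were not tested. The depth of the libraries is unknown. In such bulk values, more Ago2 per mRNA and more copies of the mRNA cannot be told apart unless the normalization removed the mRNA level. A gene's value is the median over its peaks, and the median of all 2213 genes, a log ratio of 0.17, is called the all-gene median below. As a check of the cell line, 11 genes that mark other cell types, such as ALB, PTPRC and GFAP, were all without a peak. Of 7 genes with neuronal or kidney features expected of this line, VIM, NEFL and LHX1 had peaks.

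Transcription factors of these families set the identity and position of cells in the embryo, and many of their mRNAs have long 3′ untranslated regions (3′ UTRs) that microRNAs bind. A microRNA pairs with a target mainly through its seed, the bases 2 to 8 from its 5′ end, and Ago2 then recruits factors that repress and shorten the life of the mRNA. HOX genes are the textbook case of a microRNA and its targets in the same locus. In the RefSeq gene table, MIR196B lies between HOXA9 and HOXA10, MIR196A1 between HOXB9 and HOXB13, MIR196A2 between HOXC10 and HOXC9, and MIR10A between HOXB4 and HOXB5.

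In total, HOX mRNAs held more Ago2 peaks than those of any other of these families, over 10 genes. Per gene, the 3 SOX genes held more. HOX genes had 40 of the 86 peaks, SOX genes 15, FOX genes 8, NFI genes 6, and MEF2D, SIX4 and the nuclear receptors 4 each. KLF10, KLF11, GATA6, ETV3 and ID4 had 1 peak each. No gene of the TEAD, TFAP or ZEB families and no SP gene had a peak. Against RefSeq protein-coding genes matched by symbol or accession, 10 of 40 HOX symbols, a readthrough of HOXA10 and HOXA9 included, had a peak (25%), and 31 of 209 symbols of all the families together (14.8%), beside 2082 of 20056 protein-coding genes (10.4%). By cluster, 5 of 10 HOXB genes, 4 of 11 HOXA genes, 1 of 9 HOXC genes and 0 of 9 HOXD genes had a peak. Whether the genes without a peak are transcribed in these cells was not tested.

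The peaks lay almost entirely in 3′ UTRs. Of the 86 peaks, 81 (94.2%, exact Clopper-Pearson interval over peaks at 95%, 87.0% to 98.1%) were in 3′ UTRs, beside 2894 of all 4718 peaks (61.3%), or 71.8% of the 4028 peaks outside non-coding RNAs. The share was 92.5% for HOX genes and 95.7% for the 21 other genes. The 5 exceptions were coding-sequence peaks in HOXA3, HOXA9, FOXK2 and NR1D2 and a 5′ UTR peak in HOXA10. Peaks of genes in other transcription factor families (E2F, SMAD, HES, ATF and others, 21 genes with 30 peaks) were in 3′ UTRs in 80.0% of cases, and those of 53 ZNF zinc finger genes in 70.2%. The interval treats the 86 peaks as independent, but they come from 31 genes, with 12 from HOXA9 and 9 from SOX11, and some overlap. It is therefore not an interval over genes.

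HOX genes had 4 peaks per gene, beside 2.13 over all genes, and the 21 genes outside HOX had 2.19. Among those 21, the 3 SOX genes had 5 per gene, and MEF2D and SIX4 had 4 peaks each. Of the 31 genes, 14 (45.2%) had 2 or more peaks and 6 (19.4%) had 5 or more, beside 33.9% and 7.23% of all genes. Outside HOX the shares were 38.1% and 9.52%, nearer to those of all genes. The 6 were HOXA9 with 12 peaks, SOX11 with 9, HOXA5 and HOXA10 with 6 each, and HOXA3 and SOX4 with 5 each. HOX 3′ UTRs were short for that number. The median length of the 10 HOX 3′ UTRs in GENCODE 29 was 918.5 nt, with 2.91 peaks per kb, and over all 1526 genes with a 3′ UTR peak and a matched 3′ UTR it was 1632.5 nt, with 0.894 peaks per kb. The density reached 9.42 peaks per kb in HOXA9, 8.91 in HOXB3 and 7.66 in HOXA5. For the 20 genes outside HOX the median density was 0.707 peaks per kb.

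Ago2 signal per peak was high on HOX mRNAs. The median log average of the gene values was −4.60 for the 10 HOX genes and −6.30 for all genes, and 9 of the 10 HOX genes lay above the median of all genes. HOXA9 was the exception at −6.40. For the 31 genes together the median was −5.19, and for the 21 genes outside HOX −6.19, which is close to the median of all genes. The highest values were those of SOX21, a neural repressor of transcription, with a log average of −2.29, HOXC8 with −3.37 and HOXB8 with −3.99. The lowest were those of SOX11 at −7.41, FOXJ3 at −7.27 and NR1D2 at −7.23. These levels are per peak and not per length of mRNA. Peaks were of similar length, with a median of 41 nt in the families and 39 nt over all peaks.

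**Figure D1:**
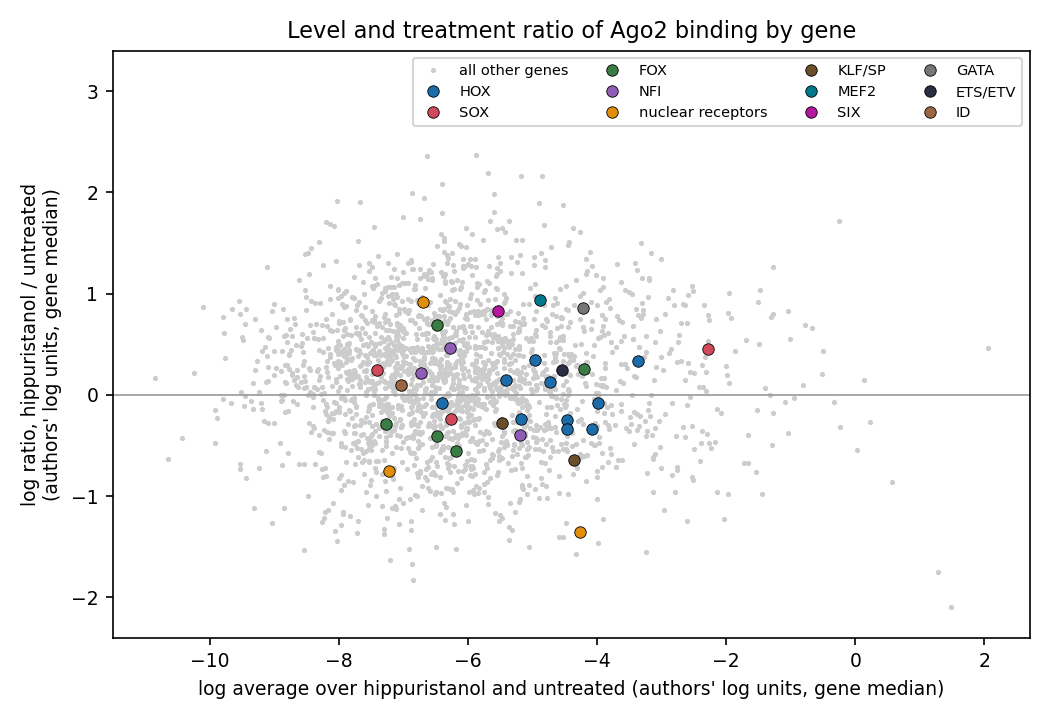
Each point is 1 gene, with the median log average of its Ago2 peaks over both treatments on the horizontal axis and the median log ratio of hippuristanol over untreated on the vertical axis, both in the authors' log units; coloured points are the families and grey points all other genes. Of the 10 HOX genes, 9 lie to the right of the median log average of all genes, with HOXA9 just left of it, and all 10 have log ratios between −0.34 and 0.35.

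MicroRNA miR-196 is known to direct cleavage of HOXB8 mRNA, and its sequence is shown beside its matches in HOX 3′ UTRs for that reason. The mature microRNAs come from RefSeq (GRCh38.p14), with the seed in capitals. Mature miR-196a from MIR196A2 lies at chr12:53991762-53991783 (plus strand), miR-196b at chr7:27169528-27169549 (minus strand) and miR-10a at chr17:48579904-48579926 (minus strand). The position of the copy from MIR196A1, on chromosome 17, is not given here. Both miR-196 forms share their seed.
hsa-miR-196a-5p: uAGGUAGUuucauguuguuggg
hsa-miR-196b-5p: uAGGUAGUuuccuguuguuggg
hsa-miR-10a-5p: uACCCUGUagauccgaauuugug
In HOXB8, the 3′ UTR window closest to the full complement of miR-196a lies at chr17:48612770-48612791 (GRCh38, minus strand, from base 411 of the 3′ UTR), and capitals mark the bases that match the complement.
HOXB8: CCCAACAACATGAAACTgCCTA
It matches 21 of the 22 bases. The difference is A18G, counted from 1 at the 5′ end of the site with the base of the complement first. Position 18 lies opposite the seed, so the window leaves a G-U pair there and a search for the exact seed match does not find it. Among the 1526 3′ UTRs searched without gaps, the next best window in any other gene matched 17 bases, and the median of the best windows was 13.

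The exact match to the miR-196 seed, ACTACCT on the mRNA strand, was frequent in the HOX 3′ UTRs. It was present in 5 of 10 HOX genes (50.0%), in 8 of the 30 genes of the families with a 3′ UTR peak (26.7%) and in 153 of all 1526 genes (10.0%). The HOX genes were HOXA5, HOXA9, HOXB6, HOXB7 and HOXC8, and the other genes with a match were GATA6, MEF2D and SOX11. The sites below are 3′ UTR stretches from GENCODE 29 with the seed match in capitals, shown because they belong to HOX mRNAs with Ago2 peaks. Coordinates are GRCh38, on the plus strand for HOXC8 and on the minus strand for the others.
HOXA5, chr7:27141387-27141408: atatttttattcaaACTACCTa
HOXA9, chr7:27163254-27163275: acaaaaggaaagaaACTACCTt
HOXA9, chr7:27162692-27162713: atgtgcagaaggttACTACCTa
HOXB6, chr17:48595934-48595955: tggaaggagcacatACTACCTa
HOXB7, chr17:48607614-48607635: aacactgaaaaaatACTACCTa
HOXC8, chr12:54011495-54011516: cactcacaactctaACTACCTg
HOXC8, chr12:54012231-54012252: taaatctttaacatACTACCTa
Outside the seed match these sites differ from each other, and in HOXA9 the first site matched 14 of the 22 bases of the complement and the second 12. The peaks are listed on hg19 and coordinates were not converted, so whether a peak covers a site is not known here. Levels of miR-196 in these cells were not analysed here.

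Each of the 12 other microRNA seed matches searched was in a smaller share of HOX genes than of all genes when the match was to bases 2 to 8. With bases 2 to 7 followed by A, the miR-7 match was in 30% of HOX genes and 20.1% of all genes, and the miR-10a match in 10% and 9.31%, which turns the direction for both. With bases 2 to 8, no HOX 3′ UTR held the match of let-7a (CTACCTC, which shares 6 letters with that of miR-196), miR-30a (TGTTTAC), miR-9 (ACCAAAG) or miR-141 (CAGTGTT), and with the other match let-7a, miR-30a and miR-141 had 1 HOX gene each. Of all genes, 12.5% held the match of let-7a, 27.1% that of miR-30a, 18.1% that of miR-9 and 26.7% that of miR-141. The miR-10a seed match (ACAGGGT) was in HOXA3 alone among the HOX genes (10.0%), and in 14.4% of all genes. HOX 3′ UTRs are shorter than the others, and the part of length in these shares was not tested. In the 20 other genes, the match to bases 2 to 8 of miR-19a (TTTGCAC) was in 10 of 20 genes (50.0%), and those to miR-141 and miR-30a were in 9 of 20 each (45%), beside 27.0%, 26.7% and 27.1% of all genes. With bases 2 to 7 followed by A, miR-19a had a match in 4 of the 20 genes (20%), below its 24.0% of all genes, miR-141 in 7 (35%), beside 18.2%, and miR-30a in 9 (45%), beside 25.8%. Their 3′ UTRs were longer, with a median of 2494.5 nt. The motifs were read on the mRNA strand only, a match is not a bound site, and the lack of one says only that these letters are not in the 3′ UTR used.

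**Figure D2:**
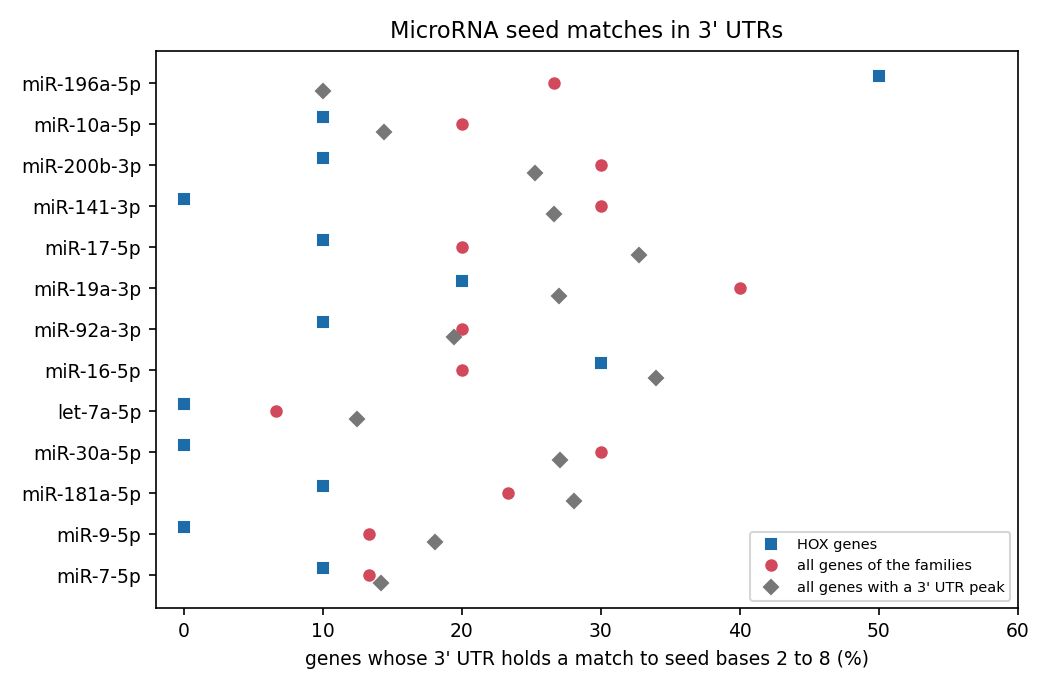
Points give the percentage of genes whose GENCODE 29 3′ UTR holds a 7-nt match to the seed of the named microRNA, for the 10 HOX genes (squares), the 30 genes of the families (circles) and all 1526 genes with a 3′ UTR peak (diamonds). The miR-196a match stands at 50.0% in HOX genes, 26.7% in the families and 10.0% in all genes.

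Under hippuristanol the families as a whole were close to the all-gene median. The median log ratio over the 31 genes was 0.10 (95% order-statistic interval over genes −0.28 to 0.25), beside 0.17 over all genes (0.14 to 0.20). Of the 31 genes, 13 (41.9%) lay above the all-gene median, where 50% of all genes do by construction. Above 0 lay 16 of the 31 and below it 15, a smaller share above 0 than the 60.5% of all genes. Of the 86 peaks, 9 (10.5%) had a log ratio above 1, beside 11.3% of all peaks, 52 had one above 0, beside 59.1% of all peaks, and 5 (5.81%) one below −1, beside 4.22% of all peaks. All 3 shares are near those of all peaks. No gene value lay above 1, beside 9.17% of all genes, and 1, NR1H2, lay below −1, beside 3.43%.

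**Figure D3:**
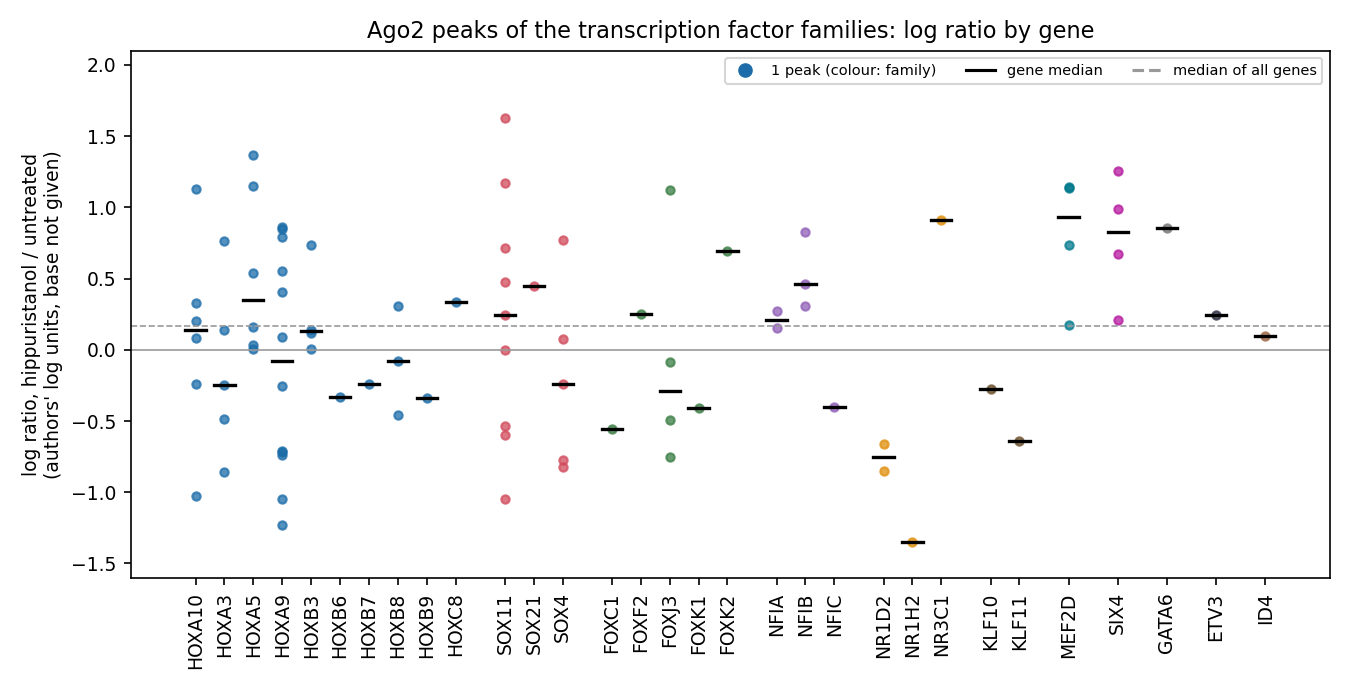
Each point is 1 Ago2 peak and each black bar the median of a gene, with the log ratio of hippuristanol over untreated in the authors' log units on the vertical axis and genes ordered by family; the dashed line is the median of all genes at 0.17. HOX gene medians lie between −0.34 and 0.35, MEF2D and SIX4 have all peaks above the dashed line, and NR1H2 stands lowest at −1.35.

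HOX gene values lay in a narrow band around 0, but HOX peaks did not. The 40 peaks ran from −1.23 to 1.37. Of them, 7.5% lay above 1 and 7.5% below −1, beside 11.3% and 4.22% of all peaks. The median of the 10 gene values was −0.08 (95% order-statistic interval −0.33 to 0.34). Of the 10 genes, 8 lay below the all-gene median of 0.17, and the gene values ran between −0.34 and 0.35. With 3′ UTR peaks only, the HOX median was 0.0053, on the other side of 0. None of the gene values lay above 0.5 or below −0.5, beside 29.1% and 15% of all genes. A median over several peaks spreads less than a single value, and 60% of HOX genes had 2 or more peaks, beside 33.9% of all genes. The part of peak number in this difference was not tested. HOXA5, a patterning gene of the neck and lung, had the highest value at 0.35, and HOXC8, of the thoracic region, had 0.34 from 1 peak in the authors' deposited table. HOXA10 and HOXB3 stood at 0.14 and 0.13. HOXB8 and HOXA9 both stood at −0.08. The lowest were HOXB7 at −0.24, HOXA3 at −0.25, HOXB6 at −0.33 and HOXB9 at −0.34. HOXB6, HOXB7 and HOXB9 had 1 peak each, and each of these values is a single number of the authors' deposited table. All 5 HOXB genes lay below the all-gene median, as did 3 of 4 HOXA genes.

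Paralogous HOX genes share their rank along the clusters. In the paralogue group of HOXA3 and HOXB3 the gene values were −0.25 and 0.13, in that of HOXA9 and HOXB9 −0.08 and −0.34, and in that of HOXB8 and HOXC8 −0.08 and 0.34. With 1 to 12 peaks behind each value and no replicates, these values cannot be set against an error. HOX genes with and without the exact miR-196 seed match both had a median log ratio of −0.08, over 5 genes each. HOXB8 counts among those without, and its value is the median of that group. The 2 HOX groups are therefore not targets and non-targets of miR-196. Over the 30 genes of the families with a 3′ UTR peak, the median log ratio was 0.29 with the match and −0.16 without. Over all 1526 genes these medians were 0.25 and 0.17. With bases 2 to 7 followed by A they were 0.08 and 0.0071 in the families, and 0.34 and 0.17 over all genes. These differences were not tested. In the authors' deposited table the 3 peaks of HOXB8, the gene with the extended complementarity, had log ratios of 0.31, −0.46 and −0.08, of which the last 2 overlap.

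HOXA9, a regulator of blood progenitors and posterior patterning, had a run of 5 peaks above 0 between peaks that were mostly below 0. Read from 5′ to 3′, the coding-sequence peak had −0.74 in the authors' deposited table (chr7:27203274-27203347, hg19, minus strand). The next 4 peaks, in the 3′ UTR, had −0.71, 0.09, −1.05 and −0.72 in the authors' deposited table. The 5 peaks after those had 0.85, 0.41, 0.55, 0.86 and 0.79 in the authors' deposited table (chr7:27202538-27202746), and the last 2 had −1.23 and −0.25. Thus 6 of the 12 peaks lay above 0 and 6 below, and the gene value of −0.08 describes neither side. Overlapping peaks cover the same bases in part, and in the run above 0 the first overlaps the second and the fourth overlaps the fifth. The peaks at 0.09 and −1.05 also overlap, although their log ratios lie on opposite sides of 0. Reads of HOXA9 and the HOXA10-HOXA9 readthrough transcript cannot be told apart, and antisense genes of the cluster may add reads unless counting used the strand.

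HOXA5 had 6 peaks, all above 0, with 0.0071, 0.54, 0.16, 1.37, 0.03 and 1.15 from 5′ to 3′ in the authors' deposited table. The peaks at 1.37 and 0.03 lie next to each other and do not overlap. HOXA10, needed for the uterus and the hindlimb, had 0.08 for its 5′ UTR peak in the authors' deposited table, and its 3′ UTR peaks had 0.33, −0.24, 0.20, 1.13 and −1.02. HOXA3, of the pharyngeal arches, had 0.14 in coding sequence and −0.85, 0.77, −0.25 and −0.49 in the 3′ UTR, in the authors' deposited table. HOXB3 had 4 peaks, all above 0, with 0.12, 0.14, 0.0030 and 0.74 in the authors' deposited table.

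**Figure D4:**
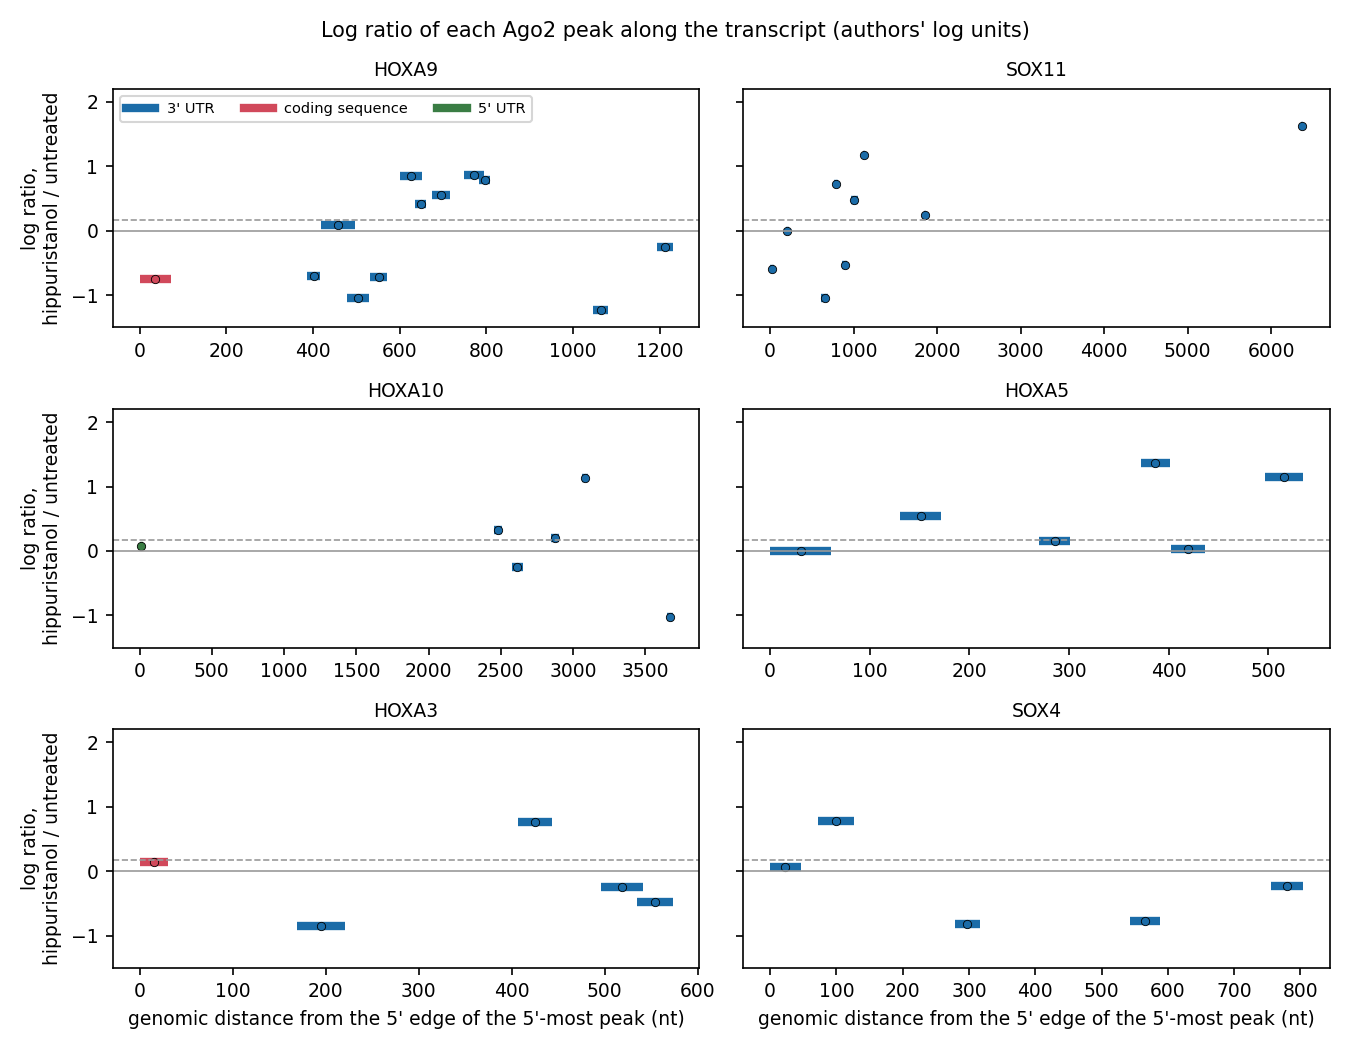
Each panel shows the Ago2 peaks of a gene with 5 or more peaks, as bars of the peak's length, by genomic distance in nt from the 5′ edge of its first peak and by log ratio of hippuristanol over untreated in the authors' log units; the dashed line is the median of all genes at 0.17. In HOXA9 the 5 peaks between 0.41 and 0.86 lie between peaks of lower log ratio, and in SOX11 the last peak has the highest value, 1.63.

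SOX genes had a median log ratio of 0.24 over 3 genes. SOX11, a factor of neural progenitors, had 9 peaks, all in the 3′ UTR, with a gene value of 0.24 and 5 of 9 above 0. Its first 3 peaks from the 5′ side had −0.60, −0.0011 and −1.05 in the authors' deposited table. The next 6 had 0.72, −0.54, 0.48, 1.17, 0.24 and 1.63 in the authors' deposited table, so the last peak (chr2:5840986-5841014, hg19, plus strand), 6355 nt from the first, had the highest log ratio of all 86 peaks. SOX4, a related factor, had a gene value of −0.24. Its 5 peaks had 0.07, 0.77, −0.82, −0.77 and −0.24 from 5′ to 3′ in the authors' deposited table, the first 2 above 0 and the other 3 below. For SOX21 the authors' deposited table lists 1 peak, at 0.45 (chr13:95362548-95362573, minus strand).

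The highest gene values in the families belonged to MEF2D, NR3C1, GATA6, SIX4 and FOXK2. MEF2D, a regulator of muscle and neuronal genes, had a gene value of 0.93. From 5′ to 3′ its 4 peaks in the 3′ UTR had 0.73, 1.14, 0.17 and 1.13 in the authors' deposited table, all above the all-gene median. SIX4, a homeobox gene of muscle and kidney development, had a gene value of 0.83, and its 4 peaks had 1.26, 0.99, 0.67 and 0.21 from 5′ to 3′ in the authors' deposited table, in descending order along the transcript. NR3C1, the glucocorticoid receptor, had 0.91, GATA6, a factor of endoderm and heart, had 0.86, and FOXK2 had 0.69, each from 1 peak in the authors' deposited table. NFIB and NFIA, nuclear factor I genes of brain and lung, had gene values of 0.46 over 3 peaks and 0.21 over 2 peaks, all above 0, whereas NFIC had −0.40 from 1 peak in the authors' deposited table.

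The lowest gene values belonged to NR1H2, NR1D2, KLF11, FOXC1 and FOXK1. NR1H2, which encodes the oxysterol receptor LXR-beta, had −1.35 for its only peak in the authors' deposited table, in the 3′ UTR (chr19:50886122-50886174, plus strand), and 0.904% of all genes had a value as low or lower. NR1D2, which encodes the clock repressor REV-ERB-beta, had a gene value of −0.75, and its coding-sequence peak and its 3′ UTR peak had −0.66 and −0.85 in the authors' deposited table. The nuclear receptors therefore held the lowest gene value and, with NR3C1, the second highest, and their median of −0.75 over 3 genes describes no shared direction. KLF11 and KLF10, both TGF-beta-inducible repressors, had −0.64 and −0.28 from 1 peak each in the authors' deposited table. ETV3 had 0.24 and ID4, an inhibitor of basic helix-loop-helix factors, 0.10, from 1 peak each in the authors' deposited table.

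FOX genes had a median log ratio of −0.29 over 5 genes. FOXC1, of eye and vessel development, had −0.55 and FOXK1 −0.40, against 0.25 for FOXF2, of palate development, and 0.69 for FOXK2, each from 1 peak in the authors' deposited table. The peaks of the paralogues FOXK1 and FOXK2 thus lay on opposite sides of 0. They are in different parts of the mRNA, that of FOXK1 in the 3′ UTR and that of FOXK2 in coding sequence. FOXJ3 had 4 peaks in its 3′ UTR with −0.50, −0.08, 1.12 and −0.75 from 5′ to 3′ in the authors' deposited table, and a gene value of −0.29.

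Peaks of the same gene often had different log ratios. The pooled SD of the log ratio within the 14 genes with 2 or more peaks was 0.67, beside 0.63 within the 750 such genes of the whole table, and the SD between the 31 gene values was 0.53. Of the 14 genes, 7 had peaks on both sides of 0, 6 had all peaks above 0 and 1, NR1D2, had all below. Over all such genes, 58.5% had both sides, 28.1% all above and 13.3% all below. The 6 with all peaks above 0 were HOXA5, HOXB3, MEF2D, SIX4, NFIA and NFIB. Neighbouring peaks that did not overlap differed by a median of 0.73 in 49 pairs of these families, and by 0.60 in 1997 pairs of all genes. Both peaks lay on the same side of 0 in 33 of the 49 pairs (67.3%), beside 57.5% of the pairs of all genes. For the log average the pooled SD within a gene was 0.45 in the families and 0.60 in all genes. An average and a ratio of the same 2 treatments are on unlike scales, so these SDs cannot be set against those of the log ratio.

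Partners of these factors were taken from lists of genes. None of 9 HOX cofactors (PBX, MEIS and PKNOX genes), 3 partners of the ID proteins and 2 corepressors of ZEB had a peak. Of 12 genes of the Hippo pathway, which controls the TEAD factors, 5 had a peak, where 10.4% of all protein-coding genes did. They were MOB1A with a gene value of 0.80, the kinases LATS2 with 0.63 and LATS1 with 0.11, the TEAD cofactor VGLL4 with −0.54 and AMOTL2 with −1.40. Of 10 nuclear receptor coregulators, NCOA4 had 1 peak, with 1.12, and of 19 nuclear receptors named otherwise, PPARD had 0.26 and RORA 0.41. The 21 genes of other transcription factor families had a median log ratio of −0.03, with 6 above the all-gene median, and the 53 ZNF genes had 0.17, with 28 above it. Their median log averages were −5.22 and −6.57. None of these differences between gene sets was tested.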

How the data were processed

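Ago2 CLIP was done in 293S cells with and without hippuristanol. The deposited table holds 4768 rows, 1 per peak. Per the file header, the 2 scores of each peak, a log average and a log ratio over the treatments, were normalized by the authors, in a log base and a way that the sources used here do not state. The tools named in the submitters' processing notes are DESeq, TopHat and Bowtie 0.12.8, and the build is hg19. Their roles are not stated. Peak coordinates are printed as listed. Peaks with the same gene and values (50 pairs) were counted once, which left 4718. Genes were matched by the symbol rule. The rule for named genes took those with 5 or more peaks, the 5 highest and 5 lowest log ratios, up to 3 genes per family by log average, and microRNA targets, and the remaining genes of the 31 are also given. Families and lists were chosen with earlier results of these data known. The 3′ UTRs came from GENCODE 29 (GRCh38) for 1526 of 1537 genes with a 3′ UTR peak, 1468 of them by RefSeq identifier, and all 30 genes of the families matched. Where several transcripts matched, the longest 3′ UTR was used. The microRNA miR-124 was not used here. Depth is unknown, samples were grouped by treatment from the labels but have no columns of their own in the table, and intervals describe spread over genes or peaks. Alternatives were gene means, pooled peaks, 3′ UTR peaks only, non-overlapping or strong peaks, all rows, sets without nuclear receptors or without HOXA9, and another seed match. Medians, exact intervals and motif searches were computed with Python 3.11.15, pandas 2.3.3 and scipy 1.17.1, and checked on simulated data.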

Additional observations from a re-analysis of the deposited data

How the results depend on the processing

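Of 66 comparisons of a value with an alternative setting, 62 kept their sign and stayed within the 95% interval of the reported value. For family medians, HOX included, the range of the gene values took the place of the interval. For the spread within genes, the alternative had to lie close to the reported value. The exceptions were the HOX median log ratio, which was 0.0053 with 3′ UTR peaks only against −0.08 with all peaks, and 3 seed shares when the match was taken as bases 2 to 7 followed by A. Those shares in the families were 10% for miR-200b, 13.3% for miR-19a and 6.67% for miR-16, against 30%, 40% and 20% with bases 2 to 8. The miR-196a share was 26.7% under both. The count sets each value against its own interval or range and not against all genes. Some values counted as kept changed sides of all genes. Among them, the miR-181a share was 23.3% beside 28.1% of all genes, then 26.7% beside 20.3%. For miR-9 it was 13.3% beside 18.1%, then 20% beside 19.1%. The FOX median was −0.05 with gene means. Without the HOX genes, an alternative chosen after seeing the data, the median log ratio of the families was 0.21, beside 0.17 of all genes left. Their median log average was then −6.19, beside −6.31, and 52.4% of them lay above the median log ratio, against 41.9% with HOX. These values were also counted as kept. No paired analysis was possible because the table holds 1 value per peak with none per library, and for the same reason no replicate could be left out. Values with 1 peak rest on a single number.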
